A study of Mus musculus with 15 samples.

Results

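Among 10 mouse lung tumours started by loss of Rb and p53, the 300 genes whose expression differed most from tumour to tumour are described here. Each gene was read from 1 probe set, the one with the highest mean over these 10 arrays, and had to have a mean log2 level above 6, which 12773 of 18193 genes did. The 300 genes with the highest standard deviation (SD) of log2 values over the 10 tumours were then taken, which is 2.35% of the genes past the filter. The genes were thus chosen by the SD of their log2 levels over these 10 tumours, so their spread over the 10 tumours is given as a description and was not tested.

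The model stands for small cell lung cancer (SCLC), a fast-growing tumour of neuroendocrine cells, and the study set out to compare it with the human disease. The 10 tumours (Δ/Δ, or deleted, for Rb and for p53, numbered 1 to 10) were dissected 8 to 12 months after an adenovirus carrying Cre recombinase had been given through the nose. Cre deletes floxed alleles in whichever airway cells the virus enters. The other samples were 3 tumours that had also lost p130 (Δ/Δ for all 3 genes, numbered 11 to 13), taken 6 months after the same infection, and 2 wild-type, tumour-free adult lungs. Whether each array stands for its own mouse is not said in the labels, so a p-value here reflects only how far these samples differ, which may be technical. A dissected tumour holds lung, blood vessel and immune cells beside the tumour cells, and in bulk RNA fewer cells of a type and less RNA per cell cannot be told apart.

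As background, SCLC cells make hormone granules and neuronal proteins. Some amplify a MYC family gene (Mycl, Mycn or Myc), which encode related growth-promoting transcription factors. Human SCLC is sorted into subtypes by lineage factors, NEUROD1, POU2F3 and YAP1 among them. Copies of a chromosome segment raise the expression of many of the unrelated genes it carries, so runs of neighbours that move together are of interest beside pathways.

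All 15 arrays had median log2 levels of 6.58 to 6.68, and the 10 tumours correlated with each other at r = 0.947 to 0.989 over all probe sets. Tumour 7 stood farthest from the rest, with a median r of 0.952 against the other 9 tumours where each other tumour had 0.964 to 0.972. The Gapdh control probes, which compare signal from the 3' and 5' ends of a transcript, differed by -0.07 to 0.36 in the tumours and by 0.72 to 0.88 in normal lung. For Actb these differences were 1.12 to 1.35 in tumours 1 to 3, 0.50 to 0.71 in tumours 4 to 10, and 1.33 and 1.99 in normal lung, which overlapped with tumour 1. In the Rb/p53/p130 tumours they were 0.81 to 1.01 for Actb, below both normal lungs, so comparisons of these tumours with normal lung run across this difference. The part of such differences in the results was not tested. Neuroendocrine genes bore out the tumour label, with a mean over 26 list genes of 10.00 to 10.99 in the Rb/p53 tumours, 10.55 to 10.74 in Rb/p53/p130 tumours and 5.68 to 5.91 in normal lung.

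The SD of the 300 genes ran from 3.06 for Xist to 1.21, with a median of 1.42, beside a median of 0.33 over all genes past the filter. The difference between the highest and the lowest tumour was 3.06 to 8.44 on the log2 scale, and 79 of the 300 genes spanned 5 or more. The limit fell in a dense stretch of the ranking. Scd1, Gria3, Slc39a4, Plekhb1 and Calcrl lay just inside with SDs of 1.21 to 1.22, and Isx, Fign, Clic5, Foxp2 and Cracd lay just outside, all at 1.21. At least 1 other probe set of the same gene passed the filter for 91 of the 300 genes. Where there were several, the one that followed the first best was taken. In 89 of the 91 (97.8%) its r with the first over the 10 tumours was at least 0.7. Over all genes, whose spread was smaller, that share was 64.8%. Further probe sets could differ, as 1 of Klk1 did at r = 0.13.

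Individual tumours contributed unequally. Tumour 7 was the lowest of the 10 for 101 of the 300 genes (33.7%, where it was lowest for 19.3% of all genes). It was the highest for 29 (9.67%, beside 17.3% of all genes). Tumours 10 and 8 were the highest most often, for 48 and 47 genes (16% and 15.7%, beside 10.4% and 11.1% of all genes). In 37 of the 300 genes 1 tumour stood apart from the other 9 by Dixon's ratio, which divides the gap to the nearest tumour by the whole range. Over all genes past the filter 7.61% were marked so. The lone tumour was high in 26 of the 37 and low in 11, and 18 of the 26 high ones belonged to tumours 7 or 8, at 9 each. In some genes, Xist and Syt4 among them, the tumours fell instead into a high and a low set. Between the sets lay an empty stretch of 2 or more log2 units, with at least 2 tumours on each side. Such a gap itself raises the SD by which the genes were chosen.

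**Figure D1:**
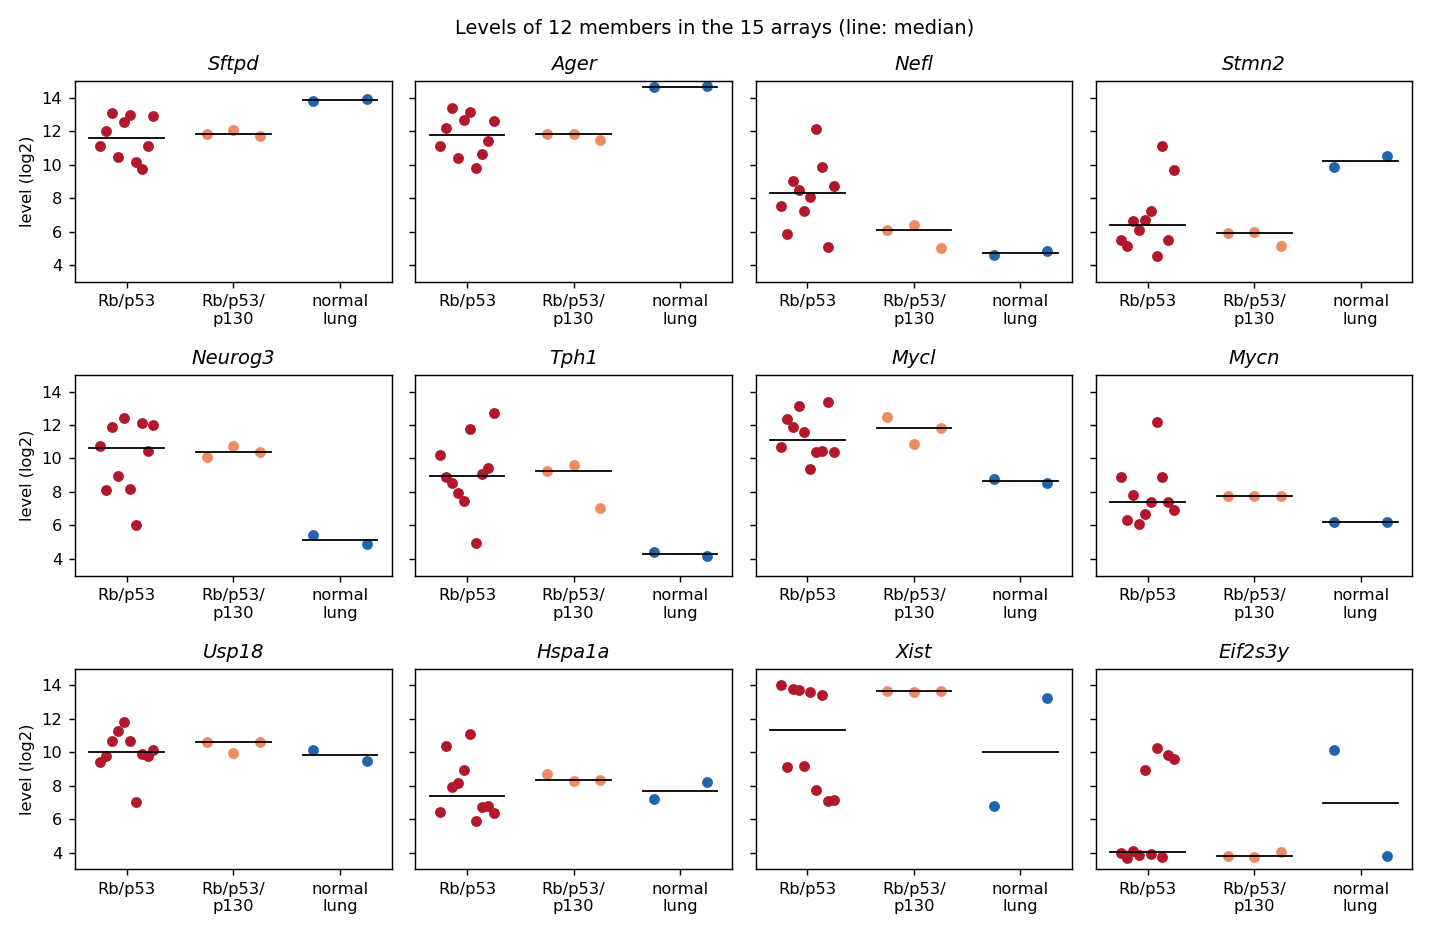
Log2 level (vertical axis) of 12 of the 300 genes in every array, by group (10 Rb/p53, 3 Rb/p53/p130 and 2 normal lung); each point is 1 array, points of a group are spread sideways in replicate order, and the line is the group's median. Mycn shows 1 high tumour, number 7 at 12.19, whereas Xist splits the tumours, with 5 between 13.43 and 14.02 and the rest at 9.19 or below.

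Of 45 gene lists for cell types and pathways, 692 genes passed the filter and 80 of them (11.6%) were among the 300. Lists of lung cells were among the most represented. The most variable genes included 7 of 21 alveolar type 2 genes, 8 of 25 club and secretory genes, 4 of 15 alveolar type 1 genes and 4 of 24 endothelial genes. Among tumour programmes, 13 of 47 synapse and axon genes, 5 of 22 neuropeptide and hormone genes and 2 of 8 MYC family genes were included. Of 26 neuroendocrine genes 2 were included (7.69%), the vesicle protein Syt4 and the granule protein Scg2. None came from the 28 G2/M genes of dividing cells, the 31 E2F targets of the G1/S step, the 17 ciliated cell genes or the 23 genes of Notch and non-neuroendocrine states. The median SD of the G2/M list was 0.45 and that of the E2F list 0.42, against 1.07 for alveolar type 2 genes and 0.78 for synapse and axon genes.

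**Figure D2:**
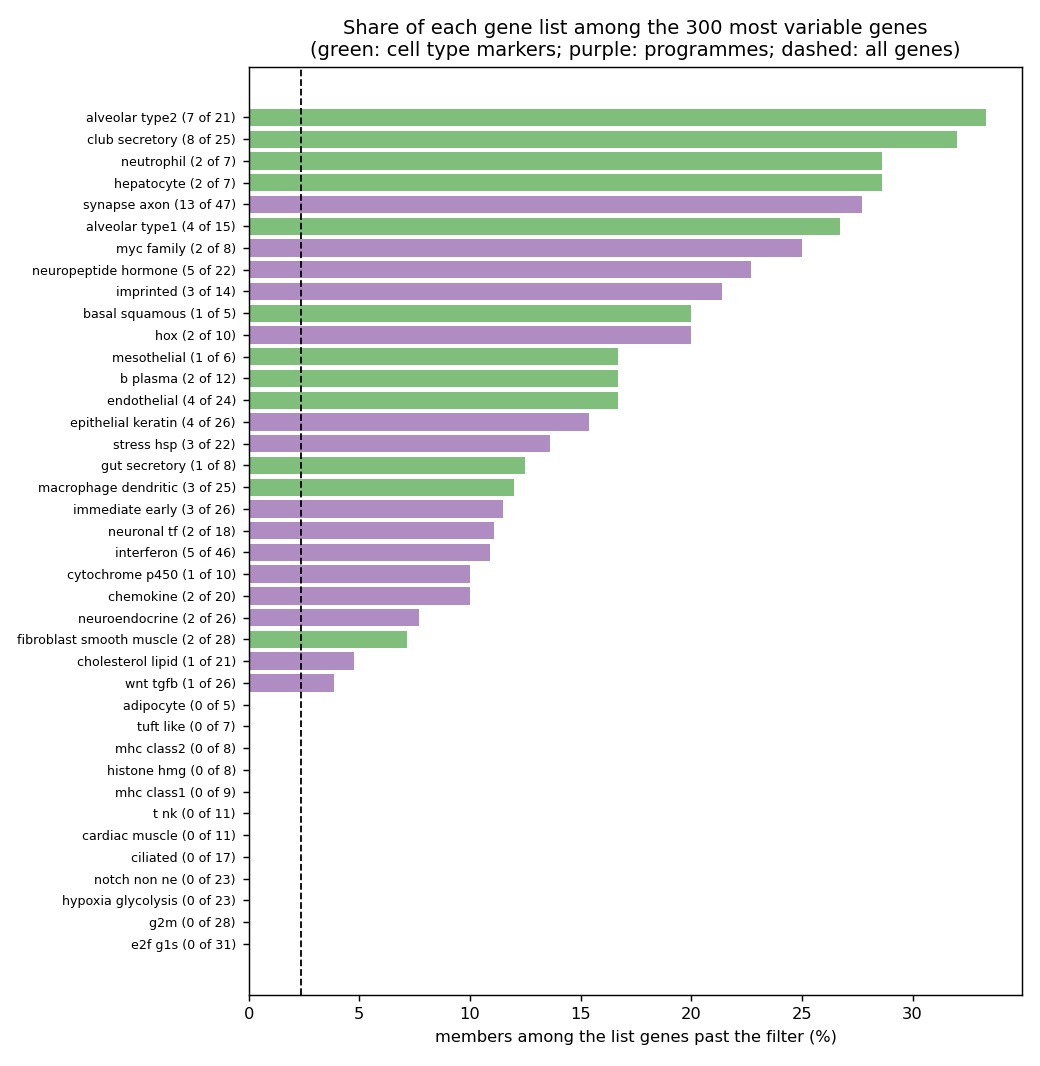
Share of each list's genes past the filter that were among the 300 most variable genes (horizontal axis, %), with the counts in brackets; green bars are cell type marker lists, purple bars are programme lists, and the dashed line is the 2.35% of all genes; lists with fewer than 5 genes past the filter are not drawn. Alveolar type 2 genes reached 33.3% and synapse and axon genes 27.7%, whereas the G2/M and E2F lists stayed at 0.

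The 300 genes were next sorted by how alike their patterns over the 10 tumours were, through average-linkage clustering on 1 minus Pearson's r with the tree divided at 0.5. This gave 12 groups of 8 or more genes, which held 218 of the 300, and 82 genes outside them. Since the groups come from the same 10 arrays, they are described and not tested.

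**Figure D3:**
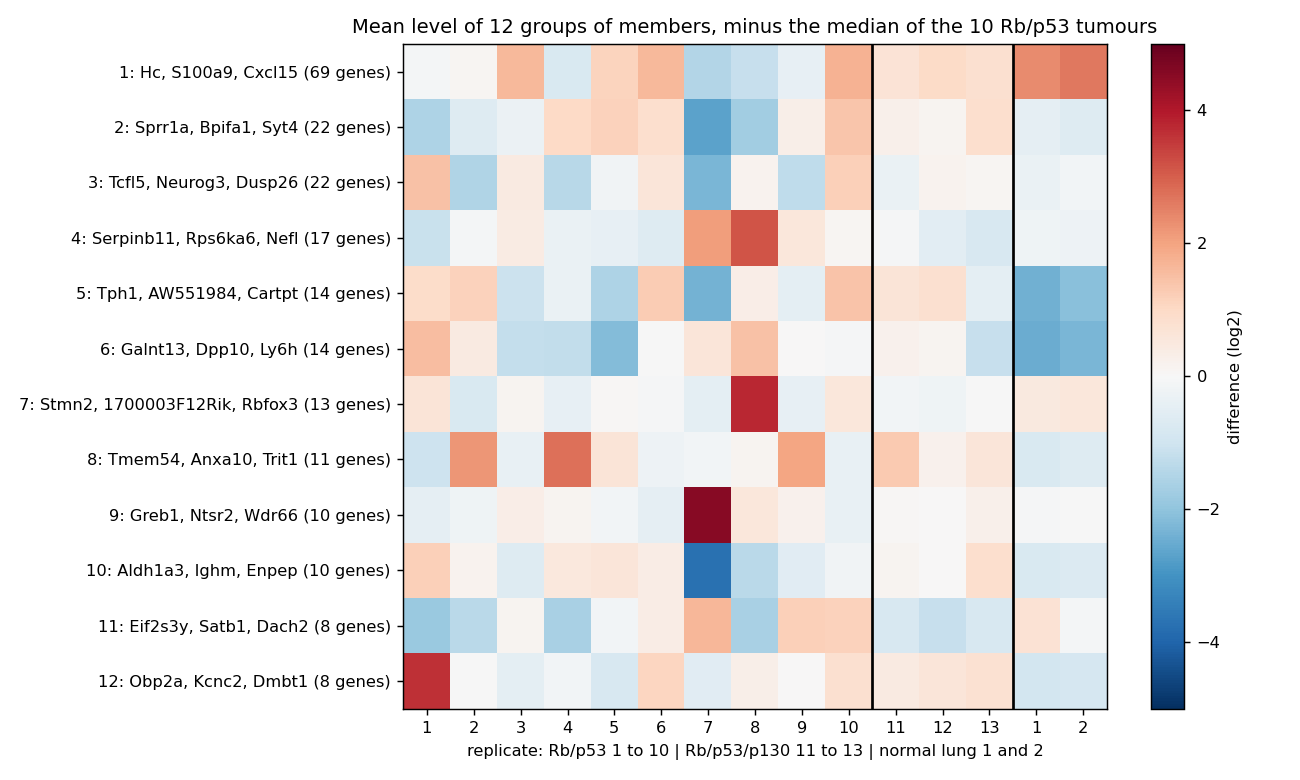
Mean log2 level of each of the 12 gene groups (rows, named by their 3 most variable genes) in each array (columns: tumours 1 to 10 with p130, tumours 11 to 13 without it, normal lungs 1 and 2), minus the group's median over the Rb/p53 tumours, on a colour scale from -5 to 5. Group 9 is high in tumour 7 alone, group 7 in tumour 8 alone and group 12 in tumour 1 alone, whereas group 1 is higher in both normal lungs than in any tumour.

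The first group, with 69 genes, held the most genes of the lung cell lists. Its mean was highest in tumours 10 (10.02), 3 (9.92) and 6 (9.89), lowest in tumours 7 (6.80) and 8 (7.15), and stood at 10.66 and 10.93 in the normal lungs. It held 7 alveolar type 2 genes, 3 alveolar type 1 genes, 4 club cell genes, 3 endothelial genes and 3 macrophage genes of the lists. For 40 of its 69 genes both normal lungs lay above all 10 tumours, where 19.9% of all genes past the filter did so.

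Sftpd, a surfactant protein that binds microbes in the alveolus, had a lowest, median and highest tumour level of 9.75, 11.59 and 13.09, in tumours 8 and 3 at the ends. In Rb/p53/p130 tumours it stood at 11.82, 12.05 and 11.70 and in normal lung at 13.83 and 13.92. No tumour reached the level of normal lung, and the Rb/p53/p130 tumours differed from it by -2.02 ± 0.15 (SE, limma adjusted p = 0.000138). Sftpa1, the surfactant gene beside it on chromosome 14, ranged from 7.86 in tumour 8 through a median of 11.25 to 13.25 in tumour 3, and its normal lung levels were 14.22 and 14.54. The neighbours thus shared both their highest and their lowest tumour. Cxcl15, a chemokine of lung epithelium, ran from 7.55 in tumour 7 to 13.08 in tumour 6 around a median of 11.05, below the 14.05 and 13.99 of normal lung. Slc34a2, the phosphate carrier of type 2 cells, spanned 7.90 to 12.23 around 10.07, and Napsa, a protease that matures surfactant proteins, 7.32 to 10.82 around 8.96.

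Ager, a receptor on flat alveolar type 1 cells, had tumour levels of 9.81 (tumour 7), 11.80 (median) and 13.41 (tumour 3) against 14.62 and 14.73 in normal lung. The 3 tumours without p130 lay inside that range at 11.81, 11.84 and 11.48, a log2 difference from normal lung of -2.96 ± 0.15 (SE, limma adjusted p = 4.14e-05). The water channel Aqp5 and the tight junction protein Cldn18, of the same list, were lowest in tumour 7 (7.13 and 6.90) and highest in tumour 6 (10.79 and 11.16). Tek, the angiopoietin receptor of endothelium, ran from 5.40 in tumour 7 to 9.93 in tumour 3 and stood at 11.59 and 12.16 in normal lung. Tmem100, another endothelial gene, reached 8.49 at most, in tumour 6, against 11.76 and 12.61. Cyp2f2, an oxidase of club cells, ran from 9.24 in tumour 7 to 13.30 in tumour 10, and Hp, the haemoglobin scavenger haptoglobin, from 10.38 in tumour 4 to 13.91 in tumour 10. Every one of these genes was thus at or near its lowest in tumours 4, 7 or 8 and at its highest in tumours 3, 6 or 10. They all come from the first group, which joins genes of like pattern, so such likeness was built in. Other variable genes of these lists lay elsewhere. Igfbp2, of the alveolar type 1 list, was in none of the 12 groups, and Hpgd, of the endothelial list, was in the eleventh.

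Among the marker lists, those of alveolar type 2 and endothelial cells, which share genes with this group, moved with it. Some others did so only in part. Cardiac muscle genes had their highest mean in tumour 4 (7.50) and their lowest in tumour 8 (6.17). Fibroblast and smooth muscle genes had their highest mean in tumour 10 (10.05), as the group did, and their lowest in tumour 9 (9.00). The mean of 21 alveolar type 2 genes was 9.25 to 11.62 in Rb/p53 tumours (lowest in tumour 8, highest in tumour 6), 10.40 to 10.83 in Rb/p53/p130 tumours and 12.42 to 12.74 in normal lung. For 24 endothelial genes these ranges were 7.00 to 8.84, 7.65 to 8.03 and 11.22 to 11.79, with tumour 7 lowest and tumour 3 highest. Their part in the spread of single genes was not tested. Some genes of the group went against the direction of lung markers, since both normal lungs lay below all 10 tumours for 2 of the 69, where 25.3% of all genes did so. Cst6, a protease inhibitor, was 5.68 to 9.85 in the tumours and 4.87 and 5.22 in normal lung, and Ceacam10, an adhesion molecule, was 6.70 to 12.07 against 5.23 and 4.94. In Rb/p53/p130 tumours 47 of the 69 genes were lower than in normal lung and 7 higher by limma, where 23.4% of all genes were lower and 33.0% higher.

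Genes of myeloid cells formed part of the same group. S100a8 and S100a9, neighbours on chromosome 3 that encode the calprotectin of neutrophils, followed each other at r = 0.98 over the 10 tumours. S100a9 stood at 5.30 in tumour 4, at a median of 6.83 and at 11.00 in tumour 2, with tumours 10 (10.59) and 3 (9.03) next. Both genes were highest in tumour 2 and both were lower in Rb/p53/p130 tumours than in normal lung (S100a9 by a log2 difference of -3.84 ± 0.30 SE, limma adjusted p = 0.000178). Chil3, a chitinase-like product of macrophages, was abundant in most tumours (median 12.38, highest 13.38 in tumour 10) and low only in tumour 8, at 7.48. Cd14, the endotoxin co-receptor, and the scavenger receptor Marco were highest in tumour 2 as well, at 11.38 and 10.04.

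A second group of 22 genes held 3 interferon genes, 2 club and secretory genes, 1 squamous gene and 1 neuroendocrine gene of the lists. Its mean was highest in tumours 10 (9.77), 5 (9.53) and 4 (9.38) and lowest in tumour 7 (5.72), with the normal lungs between at 7.93 and 7.76. Sprr1a, a cornified envelope protein of squamous epithelium, ranked 3 of all genes by SD (2.87). It stood at 5.77 in tumour 8 and 6.58 in tumour 7, at a median of 10.45 and at 13.44 in tumour 5. Its Rb/p53/p130 levels were 11.15, 10.53 and 8.43, above both normal lungs (5.61 and 5.93) by 4.27 ± 0.76 on the log2 scale (SE, limma adjusted p = 0.00446). Most tumours of either genotype thus held far more of it than normal lung, and the lowest did not. Bpifa1, a secreted defence protein of the upper airways, was high in tumours 9 (11.81), 4 (11.48) and 10 (10.58) and between 4.61 and 7.97 in the other 7. Klk1, a tissue kallikrein, ran from 5.73 in tumour 7 to 12.79 in tumour 6, and was still higher in Rb/p53/p130 tumour 13, at 13.96. Reg3g, an antibacterial lectin outside the group, was raised in tumour 4 (10.86) around a median of 5.60, and also differed between the normal lungs (6.28 and 9.94).

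Neuroendocrine and neuronal genes did not vary as 1 block but in several patterns. Syt4, a calcium-binding protein of secretory vesicles, belonged to the second group and split the tumours. Tumours 3, 4, 5, 6, 9 and 10 lay between 8.71 and 10.61, tumours 1, 2, 7 and 8 between 5.16 and 6.45, and normal lung at 5.37 and 4.68. Scg2, a granin packed into hormone granules, was high in all tumours (10.08 in tumour 5, median 12.69, 13.87 in tumour 10) and low in normal lung (4.18 and 5.92). Rb/p53/p130 tumours exceeded normal lung by 4.11 ± 0.42 for Syt4 (SE, limma adjusted p = 0.000525) and by 7.37 ± 0.89 for Scg2 (SE, limma adjusted p = 0.000944).

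The third group, 22 genes, held Neurog3, a helix-loop-helix factor that specifies endocrine cells of gut and pancreas. Neurog3 was at 6.00 in tumour 7, near the normal lung levels of 5.41 and 4.90, at a median of 10.61 and at 12.44 in tumour 5. Tumours 2, 4 and 6 were intermediate at 8.11, 8.96 and 8.17. All 3 Rb/p53/p130 tumours were close together at 10.12, 10.77 and 10.38, above normal lung by 5.27 ± 0.24 (SE, limma adjusted p = 2.82e-05). Dusp26, a phosphatase of neural tissue, followed Neurog3 at r = 0.77 (10 tumours) and was likewise lowest in tumour 7, at 5.40, and highest in tumour 5, at 10.41. Tcfl5, another helix-loop-helix factor, known from the testis, split the tumours 5 to 5, with tumours 1 (11.32), 10 (9.94), 3 (9.54), 6 (7.82) and 5 (7.43) above the other 5 at 4.18 to 4.90. Its Rb/p53/p130 levels (4.44, 4.63 and 4.41) and normal levels (4.99 and 4.35) matched the low tumours, and limma made no call (log2 difference -0.17 ± 0.21 SE, adjusted p = 0.517).

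The fifth group held 1 neuropeptide and hormone gene and 3 synapse and axon genes of the lists among its 14, which were on average highest in tumours 10 (9.88), 6 (9.71) and 2 (9.59) and lowest in tumour 7 (6.07), near the normal lungs (6.05 and 6.35). Tph1, which makes serotonin from tryptophan, ran from 4.92 in tumour 7 through 8.97 to 12.69 in tumour 10. The 3 tumours without p130 had 9.24, 9.64 and 7.05 against 4.42 and 4.17 in normal lung, a log2 difference of 4.35 ± 0.74 (SE, limma adjusted p = 0.00373). Cartpt, the precursor of an appetite peptide, split the tumours, with numbers 3 (4.78), 5 (5.32) and 7 (5.80) near the normal lung levels of 5.14 and 5.78 and the other 7 between 8.29 and 10.55. Hcrtr1, a receptor for orexin, was highest in tumour 2, at 11.03, and lowest in tumour 7, at 5.22. In this group 10 of 14 genes were higher and 0 lower in Rb/p53/p130 tumours than in normal lung (limma), where 33.0% of all genes were higher and 23.4% lower, and Cartpt was not among the calls (2.75 ± 1.07 SE, limma adjusted p = 0.0695).

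Other peptide genes, and a pair of genes of the hepatocyte list, lay in none of the 12 groups. Iapp, the islet peptide amylin, was abundant in all tumours, from 8.98 in tumour 3 to 12.89 in tumour 8, and low in normal lung (5.26 and 5.08). Grp, the bombesin-like growth peptide of SCLC, ranked 85th by SD. It ran from 5.58 in tumour 1, 5.71 in tumour 10 and 6.06 in tumour 6 up to 9.88 in tumour 9, around a median of 8.53, and the normal lungs at 6.56 and 5.25 overlapped the low tumours. Ttr, a carrier of thyroid hormone made by liver and by endocrine cells, ran from 7.75 in tumour 5 to 13.08 in tumour 1, with normal lung at 5.32 and 4.98. Alb, the albumin of liver, behaved differently, being low in 8 tumours (5.05 to 6.75), at 7.96 in tumour 10 and at 9.73 in tumour 2. It reached 13.75 in Rb/p53/p130 tumour 12 alone, where tumours 11 and 13 had 6.16 and 5.35. The mean of 7 hepatocyte genes, Alb and Ttr included, was 6.80 to 9.31 in Rb/p53 tumours. It was 7.57 to 11.05 in Rb/p53/p130 tumours and 6.68 to 6.71 in normal lung. Its part in the level of Alb was not tested.

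The fourth and seventh groups shared tumour 8 as their highest, and held 2 of 17 and 3 of 13 genes from the synapse and axon list. The fourth, 17 genes, was high in tumours 8 (10.54) and 7 (9.49) and between 6.30 and 7.96 in the other 8. Nefl, the light neurofilament, stood at 5.06 in tumour 9, at a median of 8.29 and at 12.15 in tumour 7, against 4.58 and 4.85 in normal lung. Its heavier partner Nefm peaked elsewhere, at 10.42 in tumour 4, and the pair correlated at only r = 0.54 over the 10 tumours. Tubb3, the neuronal tubulin, was highest in tumours 8 (10.57) and 7 (9.69) and lowest in tumours 6 (5.19) and 10 (6.04). Rb/p53/p130 tumours held 7.71, 7.22 and 7.26 of it against 4.65 and 4.74, a log2 difference of 2.70 ± 0.18 (SE, limma adjusted p = 9.80e-05). The actin bundler Fscn1 and the collapsin response protein Dpysl4, chosen after their values were seen, lay in this group as well. Fscn1 was highest in tumours 8 (12.48) and 3 (12.12), and Dpysl4 in tumours 7 (10.14) and 8 (9.45).

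This group also contained 2 imprinted genes, which are expressed from 1 parental copy. Ndn, a growth suppressor of neurons, reached 13.70 in tumour 8 and lay between 7.25 and 10.50 in the other 9. Cdkn1c, the cell cycle inhibitor p57, ran from 8.22 in tumour 6 to 12.28 in tumour 8. Mest, of the fifth group, was highest in tumour 6 (11.45) and lowest in tumour 7 (6.87). The mean over 14 imprinted genes, these 3 included, was 10.92 in tumour 8 and 9.24 at the lowest.

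The seventh group, 13 genes, was high in tumour 8 alone, with a mean of 10.69 against 6.17 to 7.57 in the other 9 and 7.40 and 7.50 in normal lung. Stmn2, a regulator of microtubules in growing axons, stood at 11.09 in tumour 8 and 9.66 in tumour 10, at a median of 6.37 and at 4.52 in tumour 7. It was also high in normal lung (9.86 and 10.53), so Rb/p53/p130 tumours differed by -4.53 ± 0.32 (SE, limma adjusted p = 0.000124). Gap43, a growth cone protein, was 10.70 in tumour 8 and 5.65 to 7.59 elsewhere among the tumours. Th, which makes the dopamine precursor, was 9.36 in tumour 8, 8.33 in tumour 10 and 5.38 at the lowest. Neurod1, the lineage factor of an SCLC subtype, did not pass the filter on the mean, but its highest value also came from tumour 8, at 6.40, where the other 9 had 4.32 to 4.98. Tumour 8 therefore had the highest mean of both groups while being among the lowest for lung epithelial genes, with the fourth group shared by tumour 7 and the seventh not.

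Some neuronal genes belonged to none of the 12 groups. Elavl2, a neuronal RNA-binding protein, was high in 9 tumours (8.61 to 12.62) and low only in tumour 1 (5.67), with normal lung at 4.25 and 4.23. In Rb/p53/p130 tumours it exceeded normal lung by 7.19 ± 0.19 (SE, limma adjusted p = 1.17e-05). Sox11, a factor of neural progenitors, was lowest in the same tumour (7.04, others 9.74 to 12.32). Tenm2, a synaptic adhesion protein, was high in tumours 7 (12.55), 2 (11.74) and 9 (11.55), at 8.77 in tumour 8 and between 5.38 and 7.67 in the other 6, with a median of 7.32. A second bright probe set of Tenm2 gave the same order at its top, with tumours 7 (13.23), 2 (11.77) and 9 (10.86) highest. Crabp1, which binds retinoic acid, was high in tumours 8 (11.16), 3 (10.24) and 9 (9.96) and at 4.77 to 7.10 in the rest. Chl1 and Cntn3, adhesion molecules of axons that are neighbours on chromosome 6, followed each other at r = 0.94 and were both low in tumours 2, 4 and 5.

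The sixth group, 14 genes, held the Hoxb5 and Hoxb6 genes of body patterning with the antisense transcript Hoxb5os. Its mean was highest in tumours 1 (9.91) and 8 (9.83) and lowest in tumour 5 (6.20), near the normal lungs at 5.88 and 6.08. Hoxb6 ran from 6.29 in tumour 5 and 6.92 in tumour 4 to 10.96 in tumour 8, around a median of 9.98. Tumour 13 without p130 (6.51) was low beside tumours 11 and 12 (9.67 and 9.68), and limma made no call against normal lung (7.03 and 6.86; log2 difference 1.67 ± 0.97 SE, adjusted p = 0.187). How the probe sets of Hoxb5 and its antisense partner tell the strands apart is not stated by any source used, so both levels are uncertain.

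The tenth group, 10 genes with 1 from the B and plasma cell list and 1 from the immediate early list, was low in tumour 7. Its mean was 5.70 in tumour 7 and 8.06 to 10.63 in the other 9. Egfr, the receptor for epidermal growth factor, stood at 5.40 in tumour 7 and at 8.90 to 10.66 elsewhere, with normal lung at 8.96 and 8.60. Aldh1a3, which makes retinoic acid, was 4.96 in tumour 7 and 7.17 in tumour 8, around a median of 10.17, with normal lung at 4.92 and 5.31. Rb/p53/p130 tumours lay above normal lung for Aldh1a3 by 5.56 ± 0.19 (SE, limma adjusted p = 1.44e-05) and for Egfr by 1.77 ± 0.18 (SE, limma adjusted p = 0.000511). Ighm, the heavy chain of IgM antibodies, shared the pattern, at 6.46 in tumour 7, 10.45 at the median and 13.14 in tumour 1. The keratin Krt19, of the first group, was also lowest in tumour 7 (6.95, others 9.11 to 11.49). Beside these values, the mean of 26 keratin and epithelial genes, Krt19 included, was 10.08 to 11.71 in Rb/p53 tumours. It was lowest in tumour 7 and 10.82 to 10.90 in normal lung, and its part in these values was not tested.

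A small group of 8 genes marked tumour 1 (the twelfth, mean 10.22 against 5.77 to 7.64 in the other 9). It contained Obp2a, an odorant-binding protein (10.94 in tumour 1, 4.82 to 6.67 in the rest), Kcnc2, a potassium channel of fast-firing neurons (9.23 in tumour 1, 7.98 in tumour 6), and Gria2, a glutamate receptor subunit (10.64 in tumour 1, 6.20 at the lowest). None of the 8 was lower and 6 were higher in Rb/p53/p130 tumours than in normal lung by limma, beside 23.4% and 33.0% of all genes. For Gria2 the log2 difference was 3.07 ± 0.34 (SE, adjusted p = 0.000689).

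The 2 most variable genes of all were read from the sex chromosomes. Xist, the RNA that silences 1 X chromosome in female cells, stood between 13.43 and 14.02 in tumours 1, 3, 4, 6 and 8, at 9.12 and 9.19 in tumours 2 and 5 and between 7.08 and 7.76 in tumours 7, 9 and 10. Eif2s3y, a Y-linked translation factor, stood at 8.92, 10.23, 9.83 and 9.63 in tumours 5, 7, 9 and 10 and at 3.71 to 4.13 in the other 6. The correlation of the pair over the 10 tumours was r = -0.87. In tumour 2 Xist was intermediate and Eif2s3y low, and in tumour 5 Xist was intermediate and Eif2s3y high. The 3 tumours without p130 had high Xist (13.60 to 13.69) and low Eif2s3y (3.73 to 4.03), and the normal lungs had opposite values, with Eif2s3y at 10.14 in lung 1 and 3.80 in lung 2. Comparisons of other genes between these samples therefore run across this difference too, and its part in them was not tested. Eif2s3y belonged to the eleventh group, 8 genes with a mean from 5.64 in tumour 1 to 9.13 in tumour 7, which also held Satb1, a chromatin organiser of thymocytes, at 9.60 in tumour 7 and 5.03 in tumour 1.

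Interferon-response genes are described here as 3 sets of 3, sorted after their values were seen. Of 46 genes of the list past the filter 5 were among the 300, and the list's mean was 7.57 in tumour 7, 8.82 at the median and 9.65 in tumour 5. Ifi27l2a, Oasl2 and Usp18 formed the first pattern (r = 0.85 to 0.92 over the 10 tumours), high in tumours 4, 5 and 6 and lowest in tumour 7. Usp18, a protease that restrains interferon signalling, stood at 7.03, 10.02 and 11.79 (tumour 7, median and tumour 5), and in normal lung at 10.16 and 9.51. Rsad2, which encodes the antiviral enzyme viperin, Cxcl10, a chemokine that draws T cells, and Ifit1bl1 formed the second (r = 0.76 to 0.87), highest in tumour 2. Rsad2 reached 13.61 there and 9.59 in tumour 1, and Cxcl10 reached 10.93 there and 6.43 in tumour 7. Trim34a, Trim30d and Gbp2b formed the third (r = 0.70 to 0.93), and were lowest in tumours 4 and 9. Correlations of the third pattern with the first ran from -0.08 to 0.44 and with the second from -0.35 to 0.40. Those of the first with the second ran from 0.16 to 0.75, so these sets were not clearly apart. Ifit1bl1, Trim34a, Trim30d and Gbp2b, which are not in the list, were added after their values were seen, although Trim34a and Trim30d, neighbours on chromosome 7, also formed a run. Rb/p53/p130 tumours were higher than normal lung for Ifi27l2a (2.30 ± 0.29), Cxcl10 (2.17 ± 0.17) and Rsad2 (1.07 ± 0.31; SE, limma adjusted p = 0.00113, 0.000194 and 0.0261), and limma made no call for Oasl2 and Usp18.

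Interferon acts through a promoter element, the ISRE, and the letters GAAANNGAAA were searched on both strands of the 250 bases before each start site in RefSeq promoters of GRCm38.p6. The letters occurred in 978 of 32851 promoters (2.98%), in 3.46% of 27025 genes, in 15 of the 222 most variable genes that had a promoter in the table (6.76%) and in 5 of the 7 interferon-response genes above that had one. Oasl2 and Trim34a held no such letters in that window, which says nothing of the factor, and Ifi27l2a and Usp18 are named only. The stretches below are shown because genes of both the second and the third pattern carry the same letters although their levels followed different tumours. Capitals mark the match, which reads as its reverse complement in all but Cxcl10, and each line runs 5′ to 3′ on the gene's strand. The windows lie at chr12:26456493-26456612 for Rsad2, chr19:34601993-34602112 for Ifit1bl1 (1 of 2 start sites), chr5:92349020-92349139 for Cxcl10 and chr7:104507850-104507969 for Trim30d, all on the minus strand, and at chr3:142594670-142594789 for Gbp2b on the plus strand.
Rsad2: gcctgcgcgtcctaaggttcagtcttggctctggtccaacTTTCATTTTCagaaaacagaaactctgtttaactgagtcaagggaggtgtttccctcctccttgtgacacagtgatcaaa
Ifit1bl1: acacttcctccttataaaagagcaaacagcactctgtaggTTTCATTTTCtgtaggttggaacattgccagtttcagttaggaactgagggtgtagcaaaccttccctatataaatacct
Cxcl10: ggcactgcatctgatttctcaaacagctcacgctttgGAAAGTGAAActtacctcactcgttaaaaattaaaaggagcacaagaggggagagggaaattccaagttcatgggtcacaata
Trim30d: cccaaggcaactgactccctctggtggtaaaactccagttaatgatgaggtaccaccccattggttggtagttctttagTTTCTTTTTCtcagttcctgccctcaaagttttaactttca
Gbp2b: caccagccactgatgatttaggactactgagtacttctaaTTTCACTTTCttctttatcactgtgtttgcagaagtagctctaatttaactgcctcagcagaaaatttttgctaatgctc
Rsad2, Ifit1bl1 and Cxcl10, of the second pattern, were highest in tumour 2, and Trim30d and Gbp2b, of the third, were lowest in tumours 9 and 4. A match is a description of the sequence and not a binding site.

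Stress and immediate early genes were highest in tumours 2 and 6. Hspa1a and Hspa1b, near-identical heat shock genes that are neighbours on chromosome 17, correlated at r = 0.97. Since probes of such copies can cross-react, their separate values are uncertain. Hspa1b stood at 6.91 in tumour 7, at a median of 9.25 and at 12.37 in tumour 6, with tumour 2 next at 12.03. Hmox1, an enzyme induced by oxidative stress, reached 12.37 in tumour 2 where the other 9 lay between 7.45 and 9.18. Atf3, a stress-induced factor, was 11.91 in tumour 2 and 7.91 to 9.90 elsewhere, and Fos was 12.96 in tumour 2 and 8.42 in tumour 7. Of the 6 genes of these lists among the 300, Hmox1, Atf3 and Fos were thus highest in tumour 2, and Hspa1a, Hspa1b and Egr3, an immediate early factor, in tumour 6. Acod1, an enzyme that activated macrophages induce, was also raised in tumour 2 (9.53) and lay between 5.12 and 6.58 in the rest. Rb/p53/p130 tumours were higher than normal lung for Atf3 (0.97 ± 0.23 SE, limma adjusted p = 0.0126) and lower for Fos, which stood at 10.07, 10.00 and 10.47 against 11.38 and 10.97 (SE 0.20, limma adjusted p = 0.0075). For Hmox1 and the heat shock genes limma made no call.

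Runs of neighbouring genes were then sought among the 296 genes with a known place in the RefSeq gene order, as chains with at most 3 other genes between members and r of at least 0.7 between neighbours. This gave 15 runs with 37 genes, of which 8 were gene families by the first 3 letters of their names. The other 7 joined genes whose first letters differ, called unrelated below, although Chl1 and Cntn3 are both adhesion molecules of axons. Over all 12696 pairs of adjacent genes, 1319 (10.4%) had r of at least 0.7.

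The run with the largest median deviation (4.18) joined Lratd1, Trib2, Lpin1, Ntsr2 and Greb1 on chromosome 12 in tumour 7, beside Mycn. Mycn stood at 12.19 in tumour 7, at a median of 7.38 and at 6.11 in tumour 4, and without tumour 7 its SD of 1.80 was 1.02. The 3 tumours without p130 had 7.76, 7.73 and 7.77 against 6.19 and 6.21 in normal lung, a log2 difference of 1.55 ± 0.11 (SE, limma adjusted p = 0.000127). Another probe set of Mycn also put tumour 7 alone at the top, at 10.19, and one more, which correlated with the first at r = 0.17, did not. Without the probe sets whose suffix marks possible cross-hybridisation, without tumour 7, or with the median absolute deviation in place of the SD, this run was not found.

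In gene order, 8 adjacent genes from Mycn to Greb1, 6 of them among the 300, lay 3.12 to 6.22 above their medians in tumour 7, with a median of 4.00. Ddx1, an RNA helicase, and Nbas, a factor of vesicle transport, sit between and were highest in tumour 7 too, at 14.47 and 12.23, although neither reached the 300. Ntsr2, a neurotensin receptor, stood at 12.97 in tumour 7 and at 5.94 to 7.22 in the other 9, and without that tumour its SD fell from 2.03 to 0.37. For Lpin1, a phosphatase of lipid synthesis, the SD fell from 1.25 to 0.26, and for Greb1, an oestrogen-response gene with a wide spread of its own, from 2.32 to 1.43. Rdh14 (13.65), a retinol dehydrogenase, and Ldah (13.29), a lipid droplet hydrolase, peaked in the same tumour on one side of Mycn. The genes between these high stretches were not raised: 4 genes from Kcns3 to Cyria lay -0.76 to 0.28 from their medians, 6 genes from Rhob to Ttc32 lay -1.39 to -0.44, and 38 genes beyond Greb1 lay -1.63 to 0.24. The Rb/p53/p130 tumours and normal lungs showed no such pattern, with the ninth group, which holds these genes, at means of 7.86 to 8.11 and 7.80 to 7.83 against 12.39 in tumour 7. DNA copy number was not measured.

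Around Mycl on chromosome 4 the raised tumours were 2, 4 and 9. Mycl stood at 9.39 in tumour 6, at a median of 11.12 and at 13.36, 13.16 and 12.34 in tumours 9, 4 and 2. The other 7 tumours lay at 11.86 or below, and normal lung at 8.76 and 8.55. In Rb/p53/p130 tumours Mycl was 12.46, 10.86 and 11.82, which exceeded normal lung by 3.06 ± 0.44 (SE, limma adjusted p = 0.00191). Trit1, a tRNA-modifying enzyme, Ppie, a splicing-associated isomerase, Bmp8b, a secreted growth factor, and the lipid transporter Mfsd2a followed it. Trit1 was 13.01, 12.72 and 12.34 in tumours 9, 4 and 2 and 8.90 to 10.21 in the rest, so the sets did not overlap. In tumour 4 the 7 genes from Ppt1 to Ppie lay 1.66 to 2.95 above their medians, and in tumour 9 the same 7 lay 1.71 to 3.24 above.

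Beyond that stretch the raised tumours parted. The 22 genes from Heyl on lay -1.32 to 0.26 from their medians in tumour 9, whereas in tumour 4 Pabpc4 and Macf1 lay 1.98 to 3.27 above. Pabpc4, which binds the poly(A) tail of mRNA, reached 13.88 in tumour 4, 13.05 in tumour 8 and 12.60 in tumour 2, but 10.65 in tumour 9. In tumour 8 the raised stretch covered Heyl, Pabpc4 and Macf1 alone (1.69 to 2.65 above), and Mycl was 10.42 there. Of the genes within 10 places of the Mycl run, 5 of 18 (27.8%) were highest in tumour 4, where 4.65% of all genes were. The Mycl run was not found without tumour 4, 6 or 9, without probe sets with the suffixes above, or with the median absolute deviation.

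**Figure D4:**
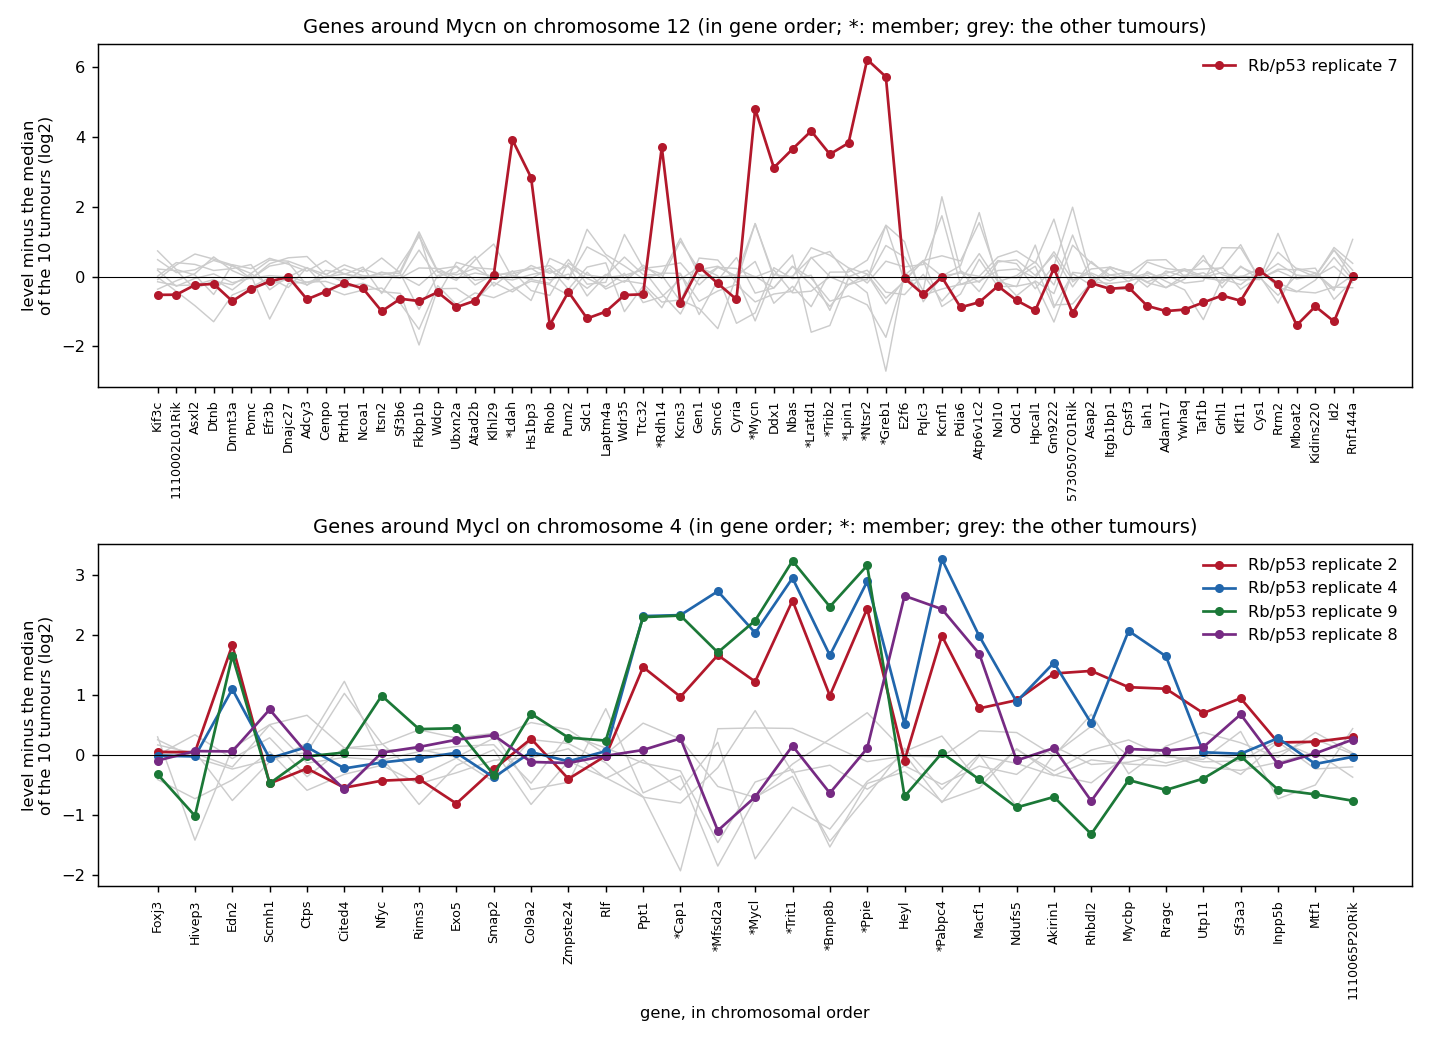
Level minus the median over the 10 Rb/p53 tumours (log2, vertical axis) of genes in chromosomal order around Mycn (top) and Mycl (bottom); coloured lines are the tumours named in the key, grey lines the other tumours, and asterisks mark genes among the 300. In the top panel tumour 7 rises over Mycn to Greb1 with a median of 4.00 and is near 0 or below in between the raised stretches; in the bottom panel tumours 4 and 9 rise together from Ppt1 to Ppie and part beyond it.

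The other runs of unrelated genes were short. Tgds, a sugar-nucleotide dehydratase, and Abcc4, a drug and nucleotide exporter, lie near each other on chromosome 14 and stood at 13.30 and 11.74 in tumour 8, above 9.42 and 9.07 as the highest of the other 9. Mycbp2, a ubiquitin ligase farther along, and Gpr180 peaked there as well, at 14.06 and 12.66. Between Mycbp2 and Tgds, Slitrk6, also among the 300, lay 2.26 above its median in tumour 8. The 7 genes from Scel to Spry2 lay -0.91 to 0.25 from their medians, and Gpc6 lay -0.10 from its own. On chromosome 2 the same tumour was highest for 1700003F12Rik (12.30), a neighbour of E2f1, whose place at rank 761 lay outside the 300. St8sia1, which makes gangliosides, and Sox5, a developmental factor, were both lowest in tumour 5 on chromosome 6 (5.44 and 4.68), and 8 of 21 genes beside them (38.1%) were lowest in tumour 5 too, against 12.9% of all genes. Except at Mycl, such shares, in the tumour where each other run of unrelated genes deviated most, were near or below those of all genes. They were 11.1% against 17.3% for the run beside Mycn, 10% against 11.1% for Tgds and Abcc4 and 5.26% against 12.3% for Cntn3 and Chl1. Slc34a2 and Cckar on chromosome 5 (4.35% against 6.5%) and Slc9a9 and Pcolce2 on chromosome 9 (14.3% against 13.8%) also formed runs. Both of these pairs lay in the first group. Among gene families, Hoxb5os, Hoxb6 and Hoxb5 were lowest in tumour 5, and the surfactant pair Sftpa1 and Sftpd in tumour 8.

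Wider shifts were sought in windows of 15 genes whose median lay 0.5 or more from the genes' own medians, a setting chosen after the data were seen. Of 12435 windows, 138 separate blocks in single tumours met it, 64 high and 74 low. Grp lay in a block of 77 genes on chromosome 18 that was low in tumour 1, where 62.3% of the genes were lowest in that tumour, against 11.0% of all genes. Syt4 lay at the start of another of 85 genes, 65.9% of which were lowest there. Both genes were lowest in tumour 1. Syt4 was also low in tumours 2, 7 and 8 and Grp in tumours 6, 8 and 10. In those tumours the median of the whole chromosome was at most 0.04 from 0. The part of the blocks in the levels of Syt4 and Grp was not tested. Over whole autosomes and chromosome X the largest shifts were -0.46 for chromosome 18 and 0.33 for chromosome 2 in tumour 1, -0.42 for chromosome 14 in tumour 7 and -0.37 for chromosome 12 in tumour 3. The most variable genes made up 1.18% (chromosome 16) to 4.19% (chromosome X) of the genes of a chromosome past the filter, leaving aside the 2 genes of chromosome Y.

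**Figure D5:**
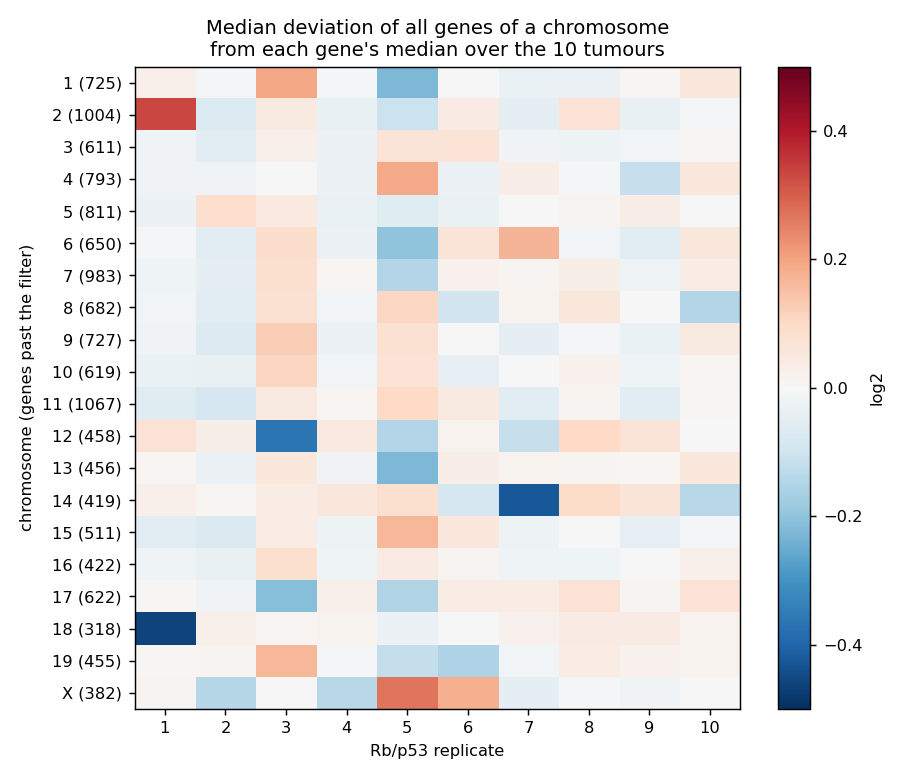
Median deviation (log2, colour from -0.5 to 0.5) of all genes past the filter on each chromosome (vertical axis, number of genes in brackets) from each gene's median over the 10 tumours, in each Rb/p53 tumour (horizontal axis, replicate 1 to 10). Chromosome 18 in tumour 1 (-0.46) and chromosome 14 in tumour 7 (-0.42) are the lowest cells.

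The same genes also varied in the samples that did not choose them. Over the 3 Rb/p53/p130 tumours their median SD was 0.57, beside 0.13 for all genes past the filter, and 40 of the 300 (13.3%) reached the lowest SD that chose a gene, beside 0.548% of all genes. Of the 300, 108 were also among the 300 genes with the highest SD over these 3 arrays. In 251 of the 300 genes all 3 Rb/p53/p130 tumours lay within the range of the 10 Rb/p53 tumours, a share near that over all genes (10032 of 12773). The largest spread without p130 was that of Alb, with an SD of 4.63. The difference between the normal lungs had a median of 0.36 for the 300 and 0.23 for all genes.

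Between Rb/p53/p130 tumours and normal lung, limma called 93 of the 300 genes higher and 87 lower, and made no call for 120. Of all genes past the filter 33.0% were called higher and 23.4% lower. The filter used the Rb/p53 mean, so these counts describe genes expressed in those tumours. With all 3 groups in 1 fit, which then holds the spread that chose the genes, 39 were higher and 30 lower. By group, 47 of the 69 genes of the first were lower, and 10 of the 14 of the fifth and 7 of the 14 of the sixth were higher. None of Hoxb5, Hoxb6 and Hoxb5os was among the calls of the sixth. By level alone, both normal lungs lay above all 10 Rb/p53 tumours for 53 of the 300 genes and below them for 49, where 19.9% and 25.3% of all genes did, and overlapped with the tumours for 198.

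Of these subtype genes of human SCLC, Pou2f3 ranked 11161 by SD, Yap1 1242 and Neurod1 fell under the filter with a mean of 4.70. Among growth and lineage genes Mycn ranked 48, Mycl 216, Nfib, a chromatin-opening factor of this model, 2694 and Myc 3266. Myc ran from 7.07 to 8.61 and Nfib from 10.68 to 12.19 over the 10 tumours, narrow ranges beside the 6.11 to 12.19 of Mycn.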

How the data were processed

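Total RNA was amplified in 2 rounds and hybridised to Affymetrix mouse arrays, per the labels' protocols, and the authors deposited log2 values that their processing notes attribute to RMA (no version given), which equalises array distributions and so hides changes in total RNA. Of 45101 probe sets, 34958 had 1 gene symbol, 932 had several and 9160 none; 34754 matched RefSeq. Genes, lists, groups and runs were computed in Python 3.11.15 (pandas 2.3.3, scipy 1.17.1), and Rb/p53/p130 tumours were compared with normal lung (3 against 2 arrays) by limma 3.58.1 in R 4.3.3 over all 12773 genes, with Benjamini-Hochberg adjustment and a threshold of 0.05. Scripts were tested on simulated data. The genes and lists were chosen with earlier results of these data known. Named genes were the 30 with the highest SD, up to 4 per list with at least 2 genes among the 300, run genes with neighbours extreme in the same tumour, the genes at the limit and a panel; others were chosen after their values were seen. Of the list entries, 117 were not analysed here. The number of arrays limits the precision.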

Additional observations from a re-analysis of the deposited data

Results flagged for a closer look

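Of 188 genes, group means and list means looked at over the 10 Rb/p53 tumours, 32 had 1 tumour far from the other 9; chance marks about 1 in 20, and many of these genes were chosen for their spread. In tumour 7 the high values were Greb1 12.48, Ntsr2 12.97, Mycn 12.19, Lratd1 12.53, Trib2 12.94, Lpin1 12.88, Ddx1 14.47, Nbas 12.23, Recql 10.27, Ints13 10.06 and Fgfr1op2 12.08, with the mean of the ninth group at 12.39. Low values in tumour 7 were Usp18 7.03, Krt19 6.95 and the mean of the tenth group, 5.70. In tumour 8 the high values were Serpinb11 12.17, Ndn 13.70, Tgds 13.30, Abcc4 11.74, Mycbp2 14.06, Gpr180 12.66, Neurod1 6.40 and E2f1 11.73, with the mean of the seventh group at 10.69 and that of the imprinted list at 10.92, and Chil3 was low at 7.48. Tumour 2 was high for Atf3 (11.91), Hmox1 (12.37) and the mean of the hepatocyte list (9.31), and low for the mean of Xist and Eif2s3y (6.41). Tumour 1 was low for Sox11 (7.04) and high for the mean of the twelfth group (10.22).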

How the results depend on the processing

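Other settings kept most of the choice of genes. Of the 300 genes, 176 were kept with the median absolute deviation, and 249 to 281 when each tumour was left out in turn. The 15 runs became 33 when no correlation was asked, and 14 to 19 with a tumour left out. The 7 runs of unrelated genes became 11 without the suffixed probe sets, 11 with the median absolute deviation, 11 with up to 10 genes between neighbours and 22 with no correlation asked, and 7 to 10 with a tumour left out. The 12 groups became 6 with complete linkage, an alternative chosen after seeing the data, and 10 to 15 with a tumour left out. List genes among the 300 numbered 76 to 86 with a tumour left out.

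Between Rb/p53/p130 tumours and normal lung, the 180 calls became 69 (39 higher, 30 lower) with all 3 groups in 1 fit, and 141 to 208 with an array left out (69 to 111 higher, 72 to 97 lower); over all genes these were 3426 to 3989 higher and 2357 to 2861 lower. Without normal lung 1 or 2, where the lone lung is assumed to vary like the tumours, 130 and 139 of the 180 calls were kept, and none changed direction under any of these settings. The 108 genes also among the 300 most variable Rb/p53/p130 genes became 81 to 96 with 1 of those 3 tumours left out. The difference of Ints13 turned to -0.23 (limma adjusted p = 0.177) without the suffixed probe sets. The cause of these changes was not tested, beyond what fewer arrays or another fit imply. No paired analysis was possible, because the normal lungs (1 and 2) were wild-type and tumour-free and so came from other animals than the Rb/p53/p130 tumours (11 to 13).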
